A study of Mus musculus with 6 samples.

Results

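TRIM proteins are a family of ubiquitin ligases named after their tripartite motif, a RING finger followed by B-box and coiled-coil domains, with a variable C-terminal domain that binds targets. Several are induced by interferon and act in antiviral defence, either on viral components directly or on the sensors and kinases that signal their presence, and others act in chromatin, at microtubules or at membranes. In the mouse, several of the interferon-linked members lie side by side on chromosome 7 and include duplicates that people do not have.

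The family was taken from the deposited table as every row whose symbol is Trim followed by a number and at most 1 letter, which gave 59 of 29587 rows. Of these, 30 were expressed, with an RPKM (reads per kilobase of gene length, scaled to library size) of at least 1 in 3 or more libraries, among 12015 expressed rows in all. Messenger RNA was profiled in mouse osteoblasts killed with ultraviolet light (apoptotic osteoblasts), in 3 libraries from old mice and 3 from young mice, and the series asks how such cells differ with donor age and escape clearance. In both groups, cells that grew out of bone pieces and adhered were passaged, placed in osteogenic medium and then exposed to ultraviolet light for 0.5 hours. The labels give no age, sex or strain, mark no genotype, and do not state that replicates are from different animals, so a p-value here reflects variation from library to library and possibly only technical variation.

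Depth was 64881180 to 84535939 recovered reads per library. Young replicate 1 stood apart, with a Pearson's r across genes of 0.949 and 0.962 to the other young libraries, which correlated at 0.996 with each other, and results that rest on it are given with and without it. The osteoblast genes Col1a1 and Sp7 were expressed at 1528 and 4.90 RPKM on average in old and at 1550 and 8.44 RPKM in young, while the osteoblast genes Alpl and Bglap were under 1 RPKM in every library. Of 7 tested osteoblast markers Sp7 fell and Spp1 rose with all libraries, calls that held in 2 and 1 of the 6 fits without 1 library. With all libraries 0.0999% of all tested genes were called lower in old and 1.47% higher. Without young replicate 1, 5 of the 7 markers were called lower in old (Col1a1, Col1a2, Runx2, Sp7 and Ibsp) and 2 higher. Without that library 19.4% of all tested genes were called lower and 13.2% higher. The part of this marker shift in the results below was not tested. Of 12 listed macrophage genes 10 had a row, and their summed level was 9.23 to 10.6 RPKM in old and 8.28 to 9.59 RPKM in young. Most of that sum came from Lyz2, 5 of the 10 stayed under 0.1 RPKM in every library, and the pan-leukocyte gene Ptprc and the macrophage gene Adgre1 were near 0 in both groups. The 5 endothelial genes summed to 0.104 to 0.122 RPKM in old and 0.0994 to 0.139 RPKM in young, and the 2 lymphocyte and 2 neutrophil genes with a row stayed under 0.1 RPKM in every library.

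Sequences near the starts of the interferon-linked members are shown first, because 6 of the 7 members that rose hold a short motif there. RefSeq promoter windows (250 bases before to 50 bases after a gene's start, GRCm38.p6) were matched by symbol for 46 of the 59 members, including 25 expressed ones. They were searched on both strands for GAAANNGAAA, the core of the interferon-stimulated response element, where N is any base. Each line below gives the first match of a member with 10 bases on either side, 5′ to 3′ on the gene's own strand, with the match in capitals.
Trim30a: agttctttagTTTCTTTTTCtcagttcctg
Trim30d: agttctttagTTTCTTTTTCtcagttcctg
Trim12a: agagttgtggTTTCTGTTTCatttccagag
Trim12c: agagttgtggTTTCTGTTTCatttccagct
Trim5: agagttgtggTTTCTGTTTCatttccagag
Trim34a: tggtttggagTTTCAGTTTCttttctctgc
Trim21: cctctgagagGAAACTGAAAgtgaaatttg
Trim26: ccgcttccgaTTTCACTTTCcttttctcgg
These stretches lie at chr7:104465210-104465239 (Trim30a, minus strand), chr7:104507871-104507900 (Trim30d, minus), chr7:104315466-104315495 (Trim12a, minus), chr7:104353359-104353388 (Trim12c, minus), chr7:104288136-104288165 (Trim5, minus), chr7:104244457-104244486 (Trim34a, plus), chr7:102565450-102565479 (Trim21, minus) and chr17:36836976-36837005 (Trim26, plus). Trim21 and Trim26 each held a second match overlapping the first, and Trim30a had a second promoter window with a match of its own. The match began at -36 in Trim30a and at 14 in Trim21, where 1 is the first base of the gene.

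The motif was found in 6 of the 7 members with a promoter window that rose in old, and in 1 of the 18 other expressed members with a window, Trim26. It was also found in 2 of 21 members below the expression limit, Trim5 and Trim2. Over all 27025 genes with a window, 3.99% held the motif, as did 3.69% of the 7805 matched expressed genes and 31.9% of the 116 matched genes that were higher in old. Among the 6, Trim34a and Trim30d passed the expression limit only when the old libraries were counted. The calls come from these same libraries, so these counts and shares are a description. The stretches of Trim30a and Trim30d are identical, and those of Trim12a, Trim12c and Trim5 differ at most in their last bases, so the matches within each of these sets of neighbouring duplicates are not separate observations. The whole window of Trim30a, which changed most, is printed next with its match in capitals (chr7:104465144-104465443, minus strand, GRCm38.p6), followed by that of Trim25, the 1 rising member in whose window these letters were not found (chr11:88999153-88999452, plus strand).
Trim30a: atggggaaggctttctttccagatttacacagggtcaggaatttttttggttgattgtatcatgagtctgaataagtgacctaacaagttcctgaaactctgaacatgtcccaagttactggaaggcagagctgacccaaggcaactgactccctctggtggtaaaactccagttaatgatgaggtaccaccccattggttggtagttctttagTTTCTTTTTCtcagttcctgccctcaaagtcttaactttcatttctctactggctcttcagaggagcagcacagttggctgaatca
Trim25: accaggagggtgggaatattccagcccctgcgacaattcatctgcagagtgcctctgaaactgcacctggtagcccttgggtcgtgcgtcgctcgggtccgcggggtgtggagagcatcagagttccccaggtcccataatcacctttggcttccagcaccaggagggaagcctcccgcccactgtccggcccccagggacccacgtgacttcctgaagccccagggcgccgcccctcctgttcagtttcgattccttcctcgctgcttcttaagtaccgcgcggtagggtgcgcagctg

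Old apoptotic osteoblasts carried more transcripts of Trim30a, Trim34a, Trim30d, Trim12c, Trim21, Trim25 and Trim12a and fewer of Trim59. Of the 30 expressed members 7 rose, where 1.47% of all tested genes were called higher, and 1 fell, where 0.0999% were called lower (limma on log2(RPKM + 1), Benjamini-Hochberg adjusted p under 0.05 over all 12015 genes). Among the 7, Trim34a and Trim30d passed the expression limit only when the old libraries were counted, so the counts of rising members are a description. Every member that rose is on a fixed list of 17 TRIM genes chosen for antiviral or interferon signalling roles. Other members may have such roles too. Of the listed genes 9 were expressed, 7 rose and 0 fell. That list was drawn up with earlier results of these libraries known and is no independent evidence of its direction. The median log2 fold change was 1.39 over these 9, 0.10 over the 30 expressed members and 0.01 over all tested genes. In bulk samples such as these, fewer cells that express a gene and less RNA of it per cell cannot be told apart.

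**Figure D1:**
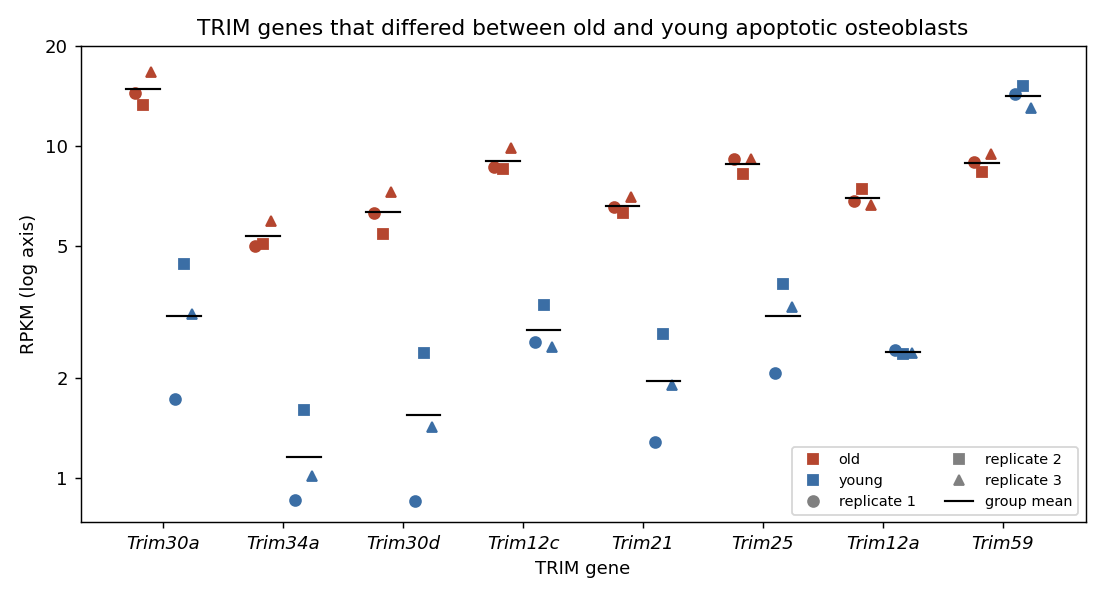
RPKM on a log axis in each of the 3 old libraries (red) and 3 young libraries (blue) for the 8 TRIM genes past the threshold; marker shapes give the replicate number and bars the group mean. The 8 genes were picked by a test on these same values, and their groups do not overlap. Of all tested genes 10.6% lay higher and 10.2% lower in old without overlap. Young replicate 1 is the lowest library in Trim30a (1.73 RPKM), Trim34a, Trim30d, Trim21 and Trim25 (2.08 RPKM) but not in Trim12a, Trim12c or Trim59.

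Trim30a, which in the mouse restrains NF-kappaB signalling by promoting loss of the adaptors TAB2 and TAB3, changed most. It stood at 14.4, 13.3 and 16.7 RPKM in old replicates 1, 2 and 3, against 1.73, 4.41 and 3.11 RPKM in young replicates 1, 2 and 3. All old libraries lay above all young ones, by a factor of 4.80 between the group means, and the young libraries differed among themselves more than the old did in proportion. On the log2 scale the fold change was 2.00 ± 0.25 (SE) at a limma adjusted p of 0.0173, and 1.74 without young replicate 1. Trim30d, a rodent duplicate of Trim30a whose own function is less studied, was at 6.27, 5.42 and 7.28 RPKM in old and at 0.853, 2.38 and 1.42 RPKM in young. Its old libraries were again all above the young ones (log2 fold change 1.56 ± 0.23 SE, limma adjusted p = 0.0326). Of the stretches of 50 bases in the annotated Trim30d transcripts (GENCODE M21), 6.39% also occur in Trim30a, so a part of their reads may have been assigned to either gene.

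Trim12a and Trim12c are mouse relatives of human TRIM5, a factor that binds incoming retroviral capsids. Trim12a had the tightest groups, at 6.82, 7.43 and 6.64 RPKM in old and 2.43, 2.36 and 2.38 RPKM in young, and young replicate 1 did not differ from the other young libraries. It had the smallest p of the 30 expressed members, and its log2 fold change was 1.23 ± 0.08 (SE) at a limma adjusted p of 0.00108. Trim12c stood at 8.63, 8.52 and 9.83 RPKM in old and at 2.56, 3.31 and 2.47 RPKM in young (log2 fold change 1.41 ± 0.12 SE, limma adjusted p = 0.00300). Old libraries were above young ones in both genes, and both passed the threshold without each of the 6 libraries in turn. Trim5 itself, between 0.833 and 1.01 RPKM in old and between 0.467 and 0.714 RPKM in young, was under the expression limit and was not tested in the main comparison, although its groups did not overlap. Of 50-base stretches in Trim12c transcripts 24.2% also occur in Trim5, and the row of Trim12c overlaps the short gene Gm27995 over 100 bases of the same strand.

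Trim34a, a relative of human TRIM34, an interferon-induced restriction factor, was at 5.002, 5.05 and 5.95 RPKM in old and at 0.856, 1.60 and 1.01 RPKM in young. The old values were 4.62 times the young ones by group mean and did not overlap with them (log2 fold change 1.57 ± 0.15 SE, limma adjusted p = 0.00507), and the call held without each library in turn. Its near copy Trim34b was below the expression limit, at 0.294, 0.337 and 0.375 RPKM in old and 0.0583, 0.0975 and 0.0847 RPKM in young, from 46 to 56 reads in old and 7 to 14 reads in young. These genes cannot be fully separated: 39.8% of the 50-base stretches of Trim34a and 56.8% of those of Trim34b occur in the other gene. Trim34a also shares 609 exonic bases with a gene on the opposite strand, RP24-125B17.2, whose highest level was 0.783 RPKM. Trim34a and Trim30d each had 1 young library under 1 RPKM and, with Trim45, passed the filter only when the old libraries were counted.

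Trim21, the cytosolic antibody receptor that marks antibody-coated particles for destruction, was at 6.56, 6.27 and 6.99 RPKM in old and at 1.28, 2.71 and 1.91 RPKM in young (log2 fold change 1.39 ± 0.18 SE, limma adjusted p = 0.0202). It lies on chromosome 7 apart from the run described below, at chr7:102557921-102565486. Trim25, the ligase known for its part in signalling by the RNA sensor RIG-I, was at 9.13, 8.25 and 9.12 RPKM in old and at 2.08, 3.85 and 3.28 RPKM in young (log2 fold change 1.30 ± 0.18 SE, limma adjusted p = 0.0240). It is the 1 rising member outside chromosome 7, at chr11:88999376-89020293. Old libraries were above young ones in both genes, and young replicate 1 was the lowest library in both.

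The calls of Trim30a, Trim30d, Trim21 and Trim25 did not hold in every fit that left out 1 library. Without any 1 old replicate, or without young replicate 3, none of these 4 passed the threshold, while their log2 fold changes over all leave-one-out fits stayed between 1.74 and 2.23 in Trim30a, 1.35 and 1.78 in Trim30d, 1.21 and 1.56 in Trim21, and 1.11 and 1.44 in Trim25. The limma adjusted p over these fits reached 0.118, 0.197, 0.139 and 0.163 in the same order. Without young replicate 1 or 2 all 7 rising members were called.

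Trim59, a ligase anchored in membranes of the endoplasmic reticulum and often linked to proliferation, was the 1 member that fell. It was at 8.96, 8.33 and 9.42 RPKM in old and at 14.3, 15.1 and 13.0 RPKM in young, and young replicate 1 lay between the other young libraries. The old mean was 37.0% lower, or -0.61 ± 0.10 (SE) as a log2 fold change, at a limma adjusted p of 0.0431. The call held without young replicate 1 (limma adjusted p = 0.00452) but not without any 1 of the other 5 libraries (limma adjusted p of 0.127 to 0.279). Trim13, the other membrane-anchored member, was at 2.51, 2.19 and 2.48 RPKM in old and 2.95, 2.65 and 2.51 RPKM in young, where the groups overlapped only slightly, and did not pass the threshold (log2 fold change -0.13, 95% interval -0.34 to 0.09). Of its 50-base stretches 14.2% also occur in Gm9359.

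Members that rose were mostly neighbours. On chromosome 7, 10 TRIM genes lie one after another over 289.1 kb from Trim6 to Trim30d (chr7:104218793-104507849, mm10), and each of the 5 expressed among them rose. Of all tested genes 1.47% were called higher. Trim34a and Trim30d passed the expression limit only when the old libraries were counted, so the count of 5 is a description. Together the 10 genes summed to 42.5, 41.1 and 48.0 RPKM in old and to 9.33, 14.9 and 11.2 RPKM in young. They made up 18.3% ± 1.15 of the summed RPKM of the family in old and 6.13% ± 0.626 in young (SD, n = 3 each). The 49 other members summed to 197, 193 and 196 RPKM in old and to 143, 206 and 192 RPKM in young, so that here young replicate 1 was low and the other young libraries were on either side of the old ones. Within the run, Trim6 was at 0.1499, 0.168 and 0.137 RPKM in old and at 0.0913, 0.179 and 0.224 RPKM in young, and Trim30b and Trim30c stayed under 0.1 RPKM in every library. Of 7 other rows inside the run 2 were expressed, and 1 of these, Gm27995, rose too. Gm27995 overlaps Trim12c over 100 bases of the same strand, so a part of their reads may have been assigned to either gene. Trim68 (old 3.69, 3.08 and 3.47 RPKM, young 3.05, 4.55 and 4.38 RPKM), the TRIM gene nearest to Trim21, did not pass the threshold, and without young replicate 1 it was called lower (log2 fold change -0.31, limma adjusted p = 0.0244).

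**Figure D2:**
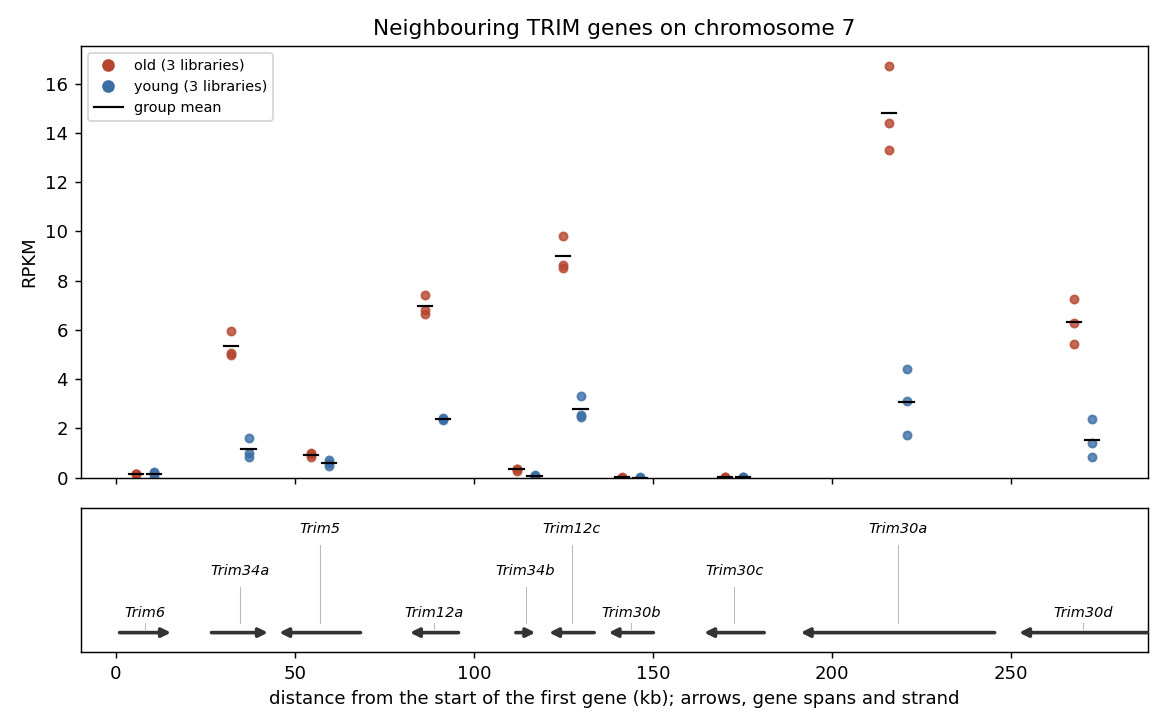
RPKM of the 10 neighbouring TRIM genes on chromosome 7 in the 3 old (red) and 3 young (blue) libraries, with group means as bars, against distance in kb from the start of Trim6; arrows below mark gene spans and strand. Trim34a, Trim12a, Trim12c, Trim30a and Trim30d were higher in old, while Trim6, Trim30b and Trim30c stayed near 0 in both groups.

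Trim56 and Trim26, the other expressed members of the antiviral list, were measured well above the limit and did not pass the threshold. Trim56, which acts in nucleic acid sensing and restricts several viruses, was at 8.85, 8.53 and 8.37 RPKM in old and at 6.65, 7.32 and 6.65 RPKM in young. The groups did not overlap, but the difference was small (log2 fold change 0.28 ± 0.08 SE, limma adjusted p = 0.259, and 0.0213 without young replicate 1). Trim26, a ligase that acts on the interferon regulatory factor IRF3 and carries the motif in its promoter window, was the most abundant member, at 25.5, 25.5 and 24.9 RPKM in old and at 13.8, 23.6 and 22.6 RPKM in young. Young replicate 1 was the lowest library by far, and the log2 fold change was 0.36 with a 95% interval of -0.13 to 0.85, and 0.13 without that library. Of the antiviral list below the expression limit, Trim65 stood at 0.615 to 0.703 RPKM in old and 0.448 to 0.724 RPKM in young, and Trim38 and Trim14, an adaptor without a RING finger that acts with the mitochondrial antiviral protein MAVS, stayed under 0.1 RPKM in every library.

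**Figure D3:**
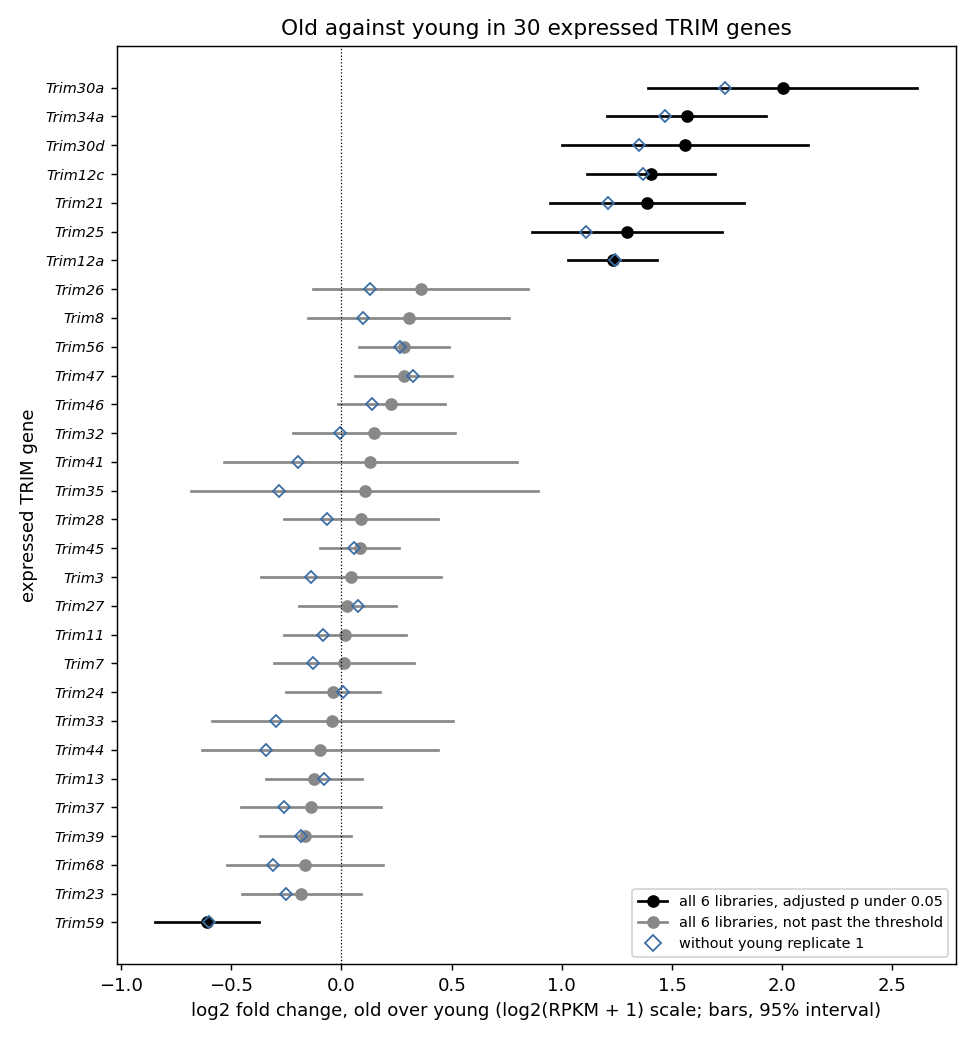
Log2 fold change of old over young for the 30 expressed TRIM genes, with 95% intervals from limma on all 6 libraries (black where the adjusted p was under 0.05, grey otherwise) and, as open diamonds, the estimate without young replicate 1. The 7 rising members lie between 1.23 and 2.00, Trim59 lies at -0.61, and the other 22 lie between -0.18 and 0.36.

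The TIF1 members, which carry a bromodomain and act in chromatin, did not pass the threshold in either direction. Trim28, the corepressor recruited by KRAB zinc finger proteins, was at 18.5, 17.9 and 17.9 RPKM in old and at 13.6, 19.3 and 18.7 RPKM in young, with a log2 fold change of 0.09 (95% interval -0.26 to 0.44). Trim24, a cofactor of nuclear receptors and a ligase for p53, was at 5.21, 5.18 and 5.38 RPKM in old and at 5.83, 5.42 and 5.04 RPKM in young (log2 fold change -0.04, 95% interval -0.25 to 0.17). Trim33, which acts on SMAD proteins of the TGF-beta pathway, was at 1.97, 1.81 and 2.13 RPKM in old and at 1.14, 2.93 and 2.39 RPKM in young. Its old libraries lay between young replicate 1 and the other young ones (log2 fold change -0.04, 95% interval -0.59 to 0.50), and without young replicate 1 it was called lower (log2 fold change -0.30, limma adjusted p = 0.0399). Trim66, the testis-linked member of this group, stayed under 0.1 RPKM.

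Among the NHL-repeat members, Trim32, a ligase known for its role in muscle, was at 4.04, 3.78 and 4.41 RPKM in old and at 2.70, 4.30 and 3.89 RPKM in young. Trim3, best known from neurons, was at 8.24, 8.37 and 7.62 RPKM in old and at 5.82, 8.72 and 9.27 RPKM in young. The groups overlapped in both genes, with 95% intervals of the log2 fold change of -0.22 to 0.52 and -0.37 to 0.45. Trim2 lay just outside the expression limit, at 0.805, 0.779 and 0.837 RPKM in old and 0.863, 1.15 and 1.06 RPKM in young, and Trim71, a stem cell factor, was under 0.1 RPKM. Just inside the limit were Trim45, at 1.16, 1.01 and 1.19 RPKM in old and 0.927, 0.992 and 1.08 RPKM in young, and Trim23, which carries a GTPase domain of the ARF type, at 0.883, 0.922 and 1.103 RPKM in old and 1.02, 1.57 and 1.14 RPKM in young. Of the microtubule-binding members only Trim46, known for bundling microtubules in axons, was expressed, at 2.11, 1.94 and 1.95 RPKM in old and 1.28, 1.67 and 1.77 RPKM in young, groups that did not overlap but did not pass the threshold (limma adjusted p = 0.494). Trim46 shares 239 exonic bases with Krtcap2 on the opposite strand.

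The remaining expressed members did not pass the threshold with all 6 libraries. Trim47 was at 5.36, 5.05 and 5.06 RPKM in old and at 4.36, 4.15 and 3.70 RPKM in young, with old libraries all above young ones. Its log2 fold change was 0.28 ± 0.09 (SE) at a limma adjusted p of 0.302, and 0.0146 without young replicate 1; it shares 225 exonic bases with Trim65 on the same strand. Trim8, which acts in cytokine signalling through SOCS1, was at 13.3, 15.1 and 13.7 RPKM in old and at 8.08, 13.2 and 12.9 RPKM in young, and all old libraries lay above the young ones. Its log2 fold change was 0.31 (limma adjusted p = 0.707), and 0.096 without young replicate 1 (limma adjusted p = 0.285). Trim39, a ligase studied in the cell cycle and apoptosis, was at 5.69, 6.08 and 5.47 RPKM in old and at 6.37, 6.44 and 6.86 RPKM in young, all lower in old (limma adjusted p = 0.608).

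In the other members without a call the groups overlapped. Trim37, a ligase of centrosomes and peroxisomes that is mutated in the human growth disorder mulibrey nanism, was at 9.50, 9.08 and 9.43 RPKM in old and at 8.58, 12.1 and 10.7 RPKM in young. Trim44, which has no RING finger, was at 8.56, 8.14 and 9.42 RPKM in old and at 6.42, 12.4 and 10.2 RPKM in young. In both, young replicate 1 was the lowest library and the other young libraries lay above all old ones. Trim11 was at 9.93, 9.45 and 8.87 RPKM in old and at 7.98, 10.1 and 9.98 RPKM in young, with a 95% interval of the log2 fold change of -0.26 to 0.29. Trim27, also known as RFP, was at 8.21, 8.56 and 7.71 RPKM in old and at 8.61, 7.63 and 7.76 RPKM in young (95% interval -0.19 to 0.25), and here young replicate 1 was the highest library. Trim7 was lowest of these, at 1.47, 1.48 and 1.54 RPKM in old and at 1.03, 1.70 and 1.76 RPKM in young, and shares 491 exonic bases with Gm16170 on the opposite strand. Of all 30 expressed members, the groups did not overlap in 12 that were higher and 2 that were lower in old, where 10.6% and 10.2% of all tested genes showed the same.

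**Figure D4:**
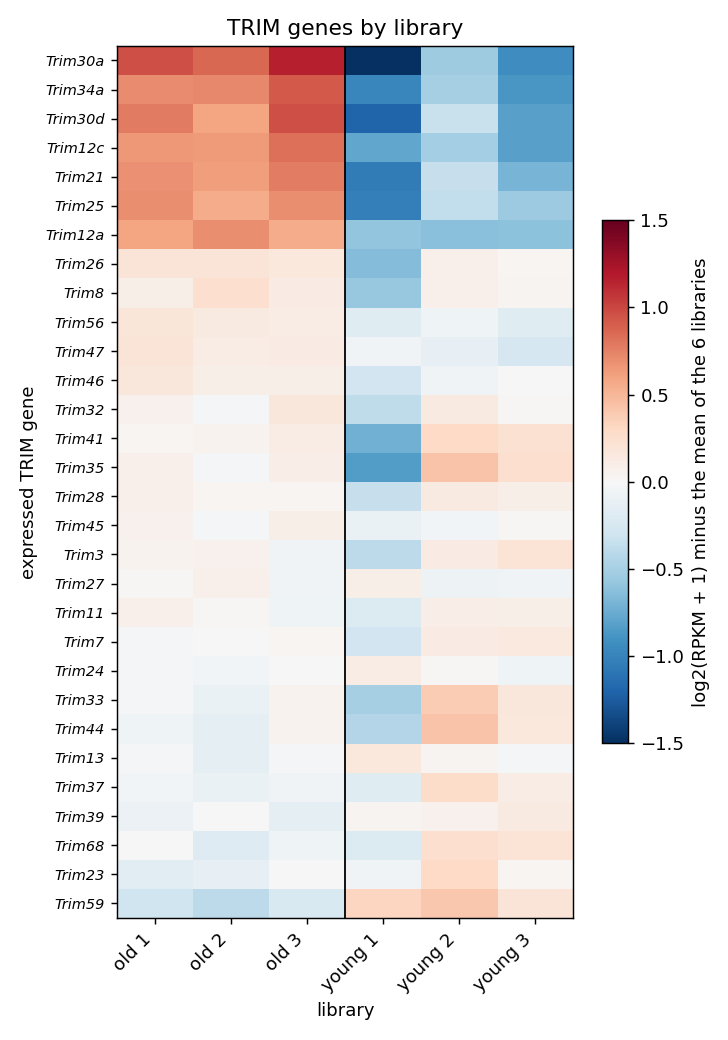
Log2(RPKM + 1) of each expressed TRIM gene in each library, less its mean over the 6 libraries, with old libraries left of the line and young libraries right of it; genes are ordered by fold change. The upper 7 genes are red in all old and blue in all young libraries, and in many of the genes below them young replicate 1 is the one clearly blue library, as in Trim35 (4.30 RPKM, against 8.35 to 11.7 RPKM in the other 5 libraries).

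Young replicate 1 was below all 5 other libraries in 20 of the 30 expressed members, and in 15 of the 22 without a call, where the same held for 48.2% of all tested genes. Trim35 was at 8.93, 8.35 and 9.08 RPKM in old and at 4.30, 11.7 and 10.2 RPKM in young, and Trim41, at 14.2, 14.5 and 15.0 RPKM in old and 7.99, 17.3 and 16.4 RPKM in young, had the same shape. Without that library 9 members were called higher and 7 lower, where 13.2% and 19.4% of all tested genes were called. The higher ones were the 7 above with Trim47 and Trim56, and the lower ones were Trim59, Trim41, Trim37, Trim35, Trim44, Trim33 and Trim68. The lower calls in the family stood near their share among all genes and say nothing particular about it.

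The 29 members below the expression limit were low, with 15 under 0.1 RPKM in every library. Their groups did not overlap in 5 higher in old (Trim16, Trim69, Trim54, Trim5 and Trim34b, named after their values were seen) and in 1 lower in old (Trim2), where 6.08% and 3.76% of all genes under the limit showed the same. Trim16, which acts in the autophagy of damaged membranes, was at 0.795, 0.943 and 0.881 RPKM in old and at 0.466, 0.668 and 0.499 RPKM in young.

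Genes that work with the rising members moved in part. Of 14 tested genes of the RIG-I pathway, from 19 listed, 4 rose and 0 fell, where 1.47% and 0.0999% of all tested genes did. The median log2 fold change of these 14 was 0.04. The rising ones were the RNA sensors Ddx58 (RIG-I itself), Ifih1 and Dhx58 and the transcription factor Irf7, and Ddx58 averaged 10.3 ± 0.152 RPKM in old and 2.18 ± 0.791 RPKM in young (SD, n = 3 each; limma adjusted p = 0.00663). Its call was lost without any 1 of the old libraries (limma adjusted p of 0.0567 to 0.0588). Ifih1, Dhx58 and Irf7 were under 1 RPKM in all young libraries and were tested only because the old libraries passed the expression limit. The adaptor Mavs, downstream of RIG-I, was at 4.69 ± 0.123 RPKM in old and 4.99 ± 1.43 RPKM in young (SD, n = 3 each). Tab2, whose protein is a target of Trim30a in the mouse, was at 32.5 ± 1.58 RPKM in old and 36.7 ± 7.26 RPKM in young (SD, n = 3 each). Both were without a call, and these are RNA levels that do not show the amount of protein. Without young replicate 1, 5 genes of this list were called higher and 2 lower, where 13.2% and 19.4% of all tested genes were. The lower calls were not above their share among all genes and say nothing particular about the pathway. Mavs and Tab2 were the lower ones, at limma adjusted p of 0.0205 and 0.0120, and the antiviral protein gene Zc3hav1 joined the higher ones (log2 fold change 0.57, limma adjusted p = 0.00113, and 0.0763 with all libraries). Among genes that carry the interferon signal to its target genes, Stat2 and Irf9 rose. Stat2 averaged 26.5 ± 0.286 RPKM in old and 5.58 ± 0.633 RPKM in young (SD, n = 3 each; limma adjusted p = 0.000214). Irf9, a DNA-binding factor that recognises the motif shown above, averaged 8.10 ± 0.308 RPKM in old and 1.32 ± 0.417 RPKM in young (SD, n = 3 each; limma adjusted p = 0.00143). With 1 young library at 0.927 RPKM, Irf9 too was tested only because the old libraries passed the expression limit. Irf1, another transcription factor of the interferon response, at 9.53 ± 0.254 RPKM in old and 6.43 ± 0.708 RPKM in young (SD, n = 3 each), did not pass the threshold with all libraries (limma adjusted p = 0.0881) and did without young replicate 1 (limma adjusted p = 0.00136).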

How the data were processed

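The authors deposited 1 table of RPKM values per gene for the 6 libraries, with exon positions and a gene length; the submitters' processing notes name fastp, STAR, HTSeq, edgeR and the build mm10, without versions or settings, and whether counting used strand is not given in the sources used here. Multiplied by length, 100.0% of the values came out as whole reads within a tolerance of 0.01 of a read, which gave the depth. For a gene 1 kb long, a floor of 3 reads equals 0.0355 to 0.0462 RPKM, depending on the library, and covers counting error only. The deposited RPKM was tested as log2(RPKM + 1) with limma 3.58.1 in R 4.3.3, with no covariate beside group and with the variance allowed to depend on mean level, over the 12015 genes with RPKM of at least 1 in 3 or more libraries; calls are at a two-sided Benjamini-Hochberg adjusted p under 0.05. All log2 fold changes are old over young on that scale, which understates changes of low genes; ratios of means carry no pseudocount. The procedure was tested on simulated data with independent noise and with larger changes than those of most called members. No simulated library stood apart as young replicate 1 does, so that test does not cover its effect on the calls. Members, gene lists and tests were chosen with earlier results of these data known. All expressed members are named, with other genes taken from fixed lists; members below the limit other than those of the antiviral list were chosen for naming after their values were seen. The labels do not state that same-numbered old and young libraries are pairs, so they were not paired in the main comparison. The replicate number was used as a block only as an alternative. Gene positions are those of the deposited table (mm10). Some genes of the fixed lists are not reported here.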

Additional observations from a re-analysis of the deposited data

How the results depend on the processing

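Among the settings that kept all 6 libraries, the members called higher numbered 6 to 7 under other pseudocounts, scalings, variance models, a mean RPKM filter, voom on recovered reads and a looser threshold, with Trim59 called lower in each, and 5, Trim34b included, with no filter on low values, where 0 were called lower (1 at an unadjusted p under 0.05 by limma) and 4 of the 8 called members missed the threshold at adjusted p of 0.0531 to 0.0812. Library weights, which gave young replicate 1 a weight of 0.0425 against 0.819 to 4.12 for the others, called 11 members higher and 8 lower (2119 and 2957 of all genes, so that 41.7% of calls were higher against 93.7% in the main comparison). With the replicate number as a block, 4 members were higher and 0 lower (82 and 0 of all genes; 505 and 287 at an unadjusted p under 0.05 by limma). Deviations of same-numbered libraries correlated at -0.0257, -0.436 and 0.329, and each old library correlated best with a young library of another number. Deviations from a mean of 3 libraries sum to 0, so these correlations cannot decide whether libraries were paired. At an adjusted p under 0.1, 254 genes were higher and 62 lower, against 177 and 12. Over the fits without 1 library, members called higher ranged from 3 to 9 and lower from 0 to 7, and all genes from 80 to 1589 higher and 0 to 2329 lower. In every fit without 1 old library, or without young replicate 3, 3 members were higher, Trim12a, Trim12c and Trim34a; the loss leaves fewer libraries to estimate the spread. The sign of some log2 fold changes that were not called with all libraries turned as follows, and the cause was not tested. Turned values were called lower for Trim41 and Trim7 under library weights (adjusted p of 0.0443 and 0.0468) and for Trim41 and Trim35 without young replicate 1 (0.0326 and 0.027). Upper-quartile scaling gave -0.0048 for Trim7, -0.0122 for Trim11 and -0.0022 for Trim27, and quantile normalization -0.0165 for Trim7 and -0.0089 for Trim11. Library weights gave -0.1776 for Trim41, -0.1407 for Trim7, -0.0519 for Trim11, -0.2032 for Trim35, 0.0321 for Trim24, -0.0348 for Trim28 and -0.1555 for Trim3. Leaving out 1 library gave -0.1983 to 0.3134 for Trim41, -0.13 to 0.0892 for Trim7, -0.0819 to 0.068 for Trim11, -0.0045 to 0.075 for Trim27, -0.2851 to 0.3442 for Trim35, -0.3402 to 0.0885 for Trim44, -0.2985 to 0.1399 for Trim33, -0.0053 to 0.2537 for Trim32, -0.0816 to 0.007 for Trim24, -0.0655 to 0.1749 for Trim28, -0.1398 to 0.1553 for Trim3 and -0.2562 to 0.0866 for Mavs.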

Other observations

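Beside the TRIM family, other enzymes of the ubiquitin system on the fixed lists differed between the groups. Of 7 tested deubiquitinases and RING or HECT ligases of the interferon response, 4 were called higher in old and 0 lower with limma, where 1.47% of all tested genes were called higher. Usp18 and Dtx3l were tested only because the old libraries passed the expression limit, so the count is a description. Usp18, the protease that removes ISG15, averaged 17.8 ± 0.367 RPKM in old and 0.472 ± 0.241 RPKM in young (SD, n = 3 each; limma adjusted p = 9.77e-05), and all its young libraries were under 1 RPKM. Rnf213, a large ligase that marks bacteria in the cytosol, was at 7.78 ± 0.642 RPKM in old and 1.73 ± 0.682 RPKM in young, Herc6, the mouse ligase for ISG15, at 3.32 ± 0.3004 RPKM in old and 1.39 ± 0.189 RPKM in young, and Dtx3l at 3.71 ± 0.316 RPKM in old and 0.921 ± 0.522 RPKM in young (SD, n = 3 each). Rnf213, Herc6 and Dtx3l were each called in 2 of the 6 fits without 1 library. Dtx3l, at a limma adjusted p of 0.0402, was also not called at a pseudocount of 0.1 or 0.5, with voom, with no filter or with the replicate block (adjusted p of 0.0615 to 0.104), and Herc6 was not called with the block (adjusted p = 0.119). Of 14 tested ubiquitin-activating and ubiquitin-conjugating genes only Ube2l6, the conjugating enzyme used for ISG15, rose, at 12.8 ± 0.679 RPKM in old and 5.68 ± 0.345 RPKM in young (SD, n = 3 each; limma adjusted p = 0.00306, and 0.0603 with the replicate block).

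Of 10 tested partners of Trim28 in gene silencing, 0 rose and 0 fell with all libraries. At shares of 1.47% higher and 0.0999% lower over all tested genes, this says nothing particular about the partners. Without young replicate 1, 4 of them were called lower, where 19.4% of all tested genes were. Pml, a TRIM protein under another symbol that builds nuclear bodies, was at 3.17 ± 0.312 RPKM in old and 1.95 ± 0.760 RPKM in young (SD, n = 3 each), with a limma adjusted p of 0.406, or 0.0319 without young replicate 1. Trim69, chosen after its values were seen, was at 0.338, 0.239 and 0.282 RPKM in old and at 0.114, 0.123 and 0.115 RPKM in young, below the expression limit. Trim54, chosen in the same way, had 16, 8 and 10 reads in old and 0, 2 and 0 reads in young, and 26.6% of its length overlaps Gm15469 on the opposite strand.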
